A study of Mus musculus with 9 samples.

Results

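Txnip, 4 of its arrestin-domain relatives (Arrdc1, Arrdc2, Arrdc3 and Arrdc4), the transcription factor genes Mlxip and Mlx, and the glucose carrier genes Slc2a1 and Slc2a3 were followed in mouse embryonic stem (ES) cells that had been starved of a single amino acid. These 9 genes were taken by symbol from the 20189 genes of the count table, and all 9 were among the 20143 genes with at least 1 count over the libraries. The set was chosen by the measured differences of Txnip, Arrdc3 and Arrdc4 between starved and unstarved cells in these data, so the values of these 3 genes are given as a description with no test, and the other 6 were tested.

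The samples were wild-type cells of E14, an established mouse ES line. They were deprived of threonine (Thr) or of cysteine (Cys) for 3 h, or were left unstarved, with 3 libraries in each of the 3 groups. Both starved groups were set against the same 3 unstarved libraries, so the 2 contrasts are not independent of each other. The labels describe a starvation medium with added glucose, GlutaMAX, dialyzed serum, β-mercaptoethanol and leukemia inhibitory factor for Arg and Leu withdrawal. The study's methods also describe a Cys-free DMEM with glucose, for its cell death assays, but do not state which medium the sequenced Thr-starved, Cys-starved and unstarved cells were in. Whether these media held the same glucose is therefore not known here, and a difference there could not be told apart from the missing amino acid. Nothing in the labels says that the 3 libraries of a group came from separate cultures, so p-values measure the spread between these libraries, which may be technical.

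TXNIP is an alpha-arrestin that binds thioredoxin and promotes removal of glucose carriers from the cell surface. MondoA, the product of Mlxip, pairs with MLX, enters the nucleus when glucose 6-phosphate accumulates and binds E-box-like elements in the Txnip and Arrdc4 promoters. Alpha-arrestins serve as adaptors between membrane proteins and ubiquitin ligases of the NEDD4 family, and GLUT1 (Slc2a1) and GLUT3 (Slc2a3) carry glucose into cells without a need for insulin.

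The promoters of the 3 genes chosen for their response are shown first, because MondoA and MLX are known to act at such sequences. Each line below gives the 250 bases before the gene's start in RefSeq (GRCm38.p6), read 5′ to 3′ on the gene's own strand. Capitals mark the E-box CACGTG, a pair of E-box-like sites (CACGNG, any 5 bases, CACGNG) and the CCAAT box, each searched on both strands. The regions were chr3:96557707-96557956 on the plus strand for Txnip, chr7:68749239-68749488 on the minus strand for Arrdc4 and chr13:80883134-80883383 on the plus strand for Arrdc3, which has 3 start sites in the table and is shown for the first.
Txnip: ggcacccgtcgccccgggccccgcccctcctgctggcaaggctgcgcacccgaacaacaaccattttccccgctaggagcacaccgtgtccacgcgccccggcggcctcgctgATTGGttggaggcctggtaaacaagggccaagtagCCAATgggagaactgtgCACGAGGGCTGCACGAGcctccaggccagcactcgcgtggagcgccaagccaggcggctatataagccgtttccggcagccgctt
Arrdc4: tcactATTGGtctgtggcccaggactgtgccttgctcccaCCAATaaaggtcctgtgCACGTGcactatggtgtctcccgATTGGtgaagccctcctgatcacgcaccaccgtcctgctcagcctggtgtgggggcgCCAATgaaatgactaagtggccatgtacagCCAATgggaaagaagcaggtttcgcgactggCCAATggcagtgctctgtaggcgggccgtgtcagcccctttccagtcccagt
Arrdc3: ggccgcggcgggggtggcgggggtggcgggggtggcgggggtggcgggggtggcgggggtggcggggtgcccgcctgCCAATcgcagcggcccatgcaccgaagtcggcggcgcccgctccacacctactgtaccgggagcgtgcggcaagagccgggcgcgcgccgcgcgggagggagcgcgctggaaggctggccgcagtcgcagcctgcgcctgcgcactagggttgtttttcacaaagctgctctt

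The Txnip promoter held the paired element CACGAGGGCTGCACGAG from position -85 to -69 relative to the start site. Such a match was found in 15 of 32851 mouse promoter windows of the same length (0.0457%). E-box-like elements were already known in this promoter, as stated above, so the match is no independent support for them. The Txnip promoter also held 2 CCAAT boxes, whose first bases lay at positions -137 and -102. Arrdc4 held an E-box at positions -193 to -188 and 6 CCAAT boxes. An E-box was present in 6.02% of all windows and a CCAAT box in 33.8%, and the 2 motifs share no bases in either promoter. Of the 8 members with an entry in the promoter table, Mlx was the other one with an E-box, at -40 to -35. Arrdc3 had 1 CCAAT box in the window shown and neither E-box form. CCAAT boxes were also present in Arrdc2 (3), Mlxip (2) and Mlx (2), which were lower in Thr starvation, and were absent from Arrdc1 and Slc2a1. The core TGATGNAA of the amino acid response element, at which C/EBP and ATF4 bind, occurred in 3.45% of windows and in none of the 8 members. Slc2a3 had no entry. These are letter matches in short windows and carry no measurement of binding, and elements outside the windows were not searched. Under Arg or Leu starvation, the study places Txnip (written Txnip1) among the transcripts under control of the kinase GCN2 and mediators such as ATF4. Whether this holds for Thr or Cys starvation was not tested here.

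The 9 genes are protein-coding and lie on 9 chromosomes in GRCm38. Txnip spans chr3:96557957-96561883, Arrdc1 chr2:24925352-24935252, Arrdc2 chr8:70835129-70839720, Arrdc3 chr13:80883384-80896042 and Arrdc4 chr7:68736995-68749241. Mlxip spans chr5:123394798-123457932, Mlx chr11:101087277-101092207, Slc2a1 chr4:119108711-119137983 and Slc2a3 chr6:122727809-122801640. The strand setting of the counting is not given in the sources used here, so reads of genes that overlap on opposite strands cannot be told apart. This bears most on Mlx, which shares 385 exon bases (19.3% of its exons) with Psmc3ip on the other strand, a gene with 10651 counts over the 9 libraries against 15017 for Mlx. For Txnip the overlap with the antisense gene Gm15441 was 606 bases, but that gene had 325 counts against 149069 for Txnip. The longest Slc2a3 transcript holds a stretch of up to 195 bases at 95% identity or more to exons of 83 other genes, so part of its reads could have been assigned differently.

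Total counts per library ran from 48763102 to 74962733, and the smallest count of any member in any library was 128, for Arrdc1 in a Thr-starved library. Among counts from 1 to 20, 67.8% were even, so the counting may have taken the 2 ends of a fragment separately. The cells carried the markers of their label: 12 of 12 pluripotency genes averaged at least 5 CPM (counts per 1000000 counts of the library) in each group, with summed levels of 4827 to 4875 CPM unstarved, 4824 to 4925 under Thr starvation and 4505 to 4547 under Cys starvation. The 12 genes of differentiated derivatives summed to 27.4 to 28.6, 31.3 to 34.4 and 33.3 to 33.8 CPM in the same order, and none of the 12 was at 0 in any group. The 7 of 10 fibroblast genes in the table summed to between 18 and 22.4 CPM in all libraries. These sums hide moves in both directions, counted as genes called at an adjusted p of 0.05 or less in the edgeR test described below. Of all genes with at least 1 count, 63.0% were called in Thr starvation and 36.3% in Cys starvation. These shares include genes of far lower level, so the marker counts are not read as an excess. In Thr starvation 5 of the 12 pluripotency genes rose and 7 fell, with Klf4 at 267 CPM against 148 unstarved (log2 difference 0.85) and Utf1 at 95.1 against 307 (-1.69). In Cys starvation 3 rose and 9 fell, of which Tdgf1 fell by 0.50. The median log2 difference of the 12 was -0.094 in Thr starvation and -0.18 in Cys starvation, so many of these moves were small. Of the 12 differentiation genes, 4 rose (Sox1, Foxa2, Sox17 and Gata4) and 4 fell (T, Eomes, Cdx2 and Meox1) in Thr starvation. Of these, Sox1 alone averaged 5 CPM or more (log2 difference 0.88), and the rest were of lower level. In Cys starvation 4 of the 12 rose and 2 fell. No fibroblast gene rose in either starvation, and 2 fell in Thr starvation and 1 in Cys starvation. The part of these shifts in the results that follow was not tested.

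The 3 genes that chose the set were highest in Thr starvation and intermediate in Cys starvation. Txnip was at 113, 115 and 114 CPM in the unstarved libraries (a level scaled by edgeR's TMM method), at 480, 503 and 495 under Thr starvation and at 248, 241 and 235 under Cys starvation. The 3 groups were well apart, with the Cys-starved libraries between the others. In whole cultures such as these, a changed share of some cells and a changed RNA level per cell cannot be told apart. The log2 fold change from unstarved cells was 2.11 (SE 0.025, a 4.32-fold difference) in Thr starvation and 1.08 (SE 0.025, 2.12-fold) in Cys starvation. Among the 11410 genes that averaged 5 CPM or more over the libraries, Txnip had the 15th largest increase in Thr starvation and the 26th largest in Cys starvation.

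Arrdc4, the alpha-arrestin whose promoter is shown above beside that of Txnip, differed most between the starvations of these 3 genes. Its level was 78.8, 80.3 and 79.3 CPM unstarved, 364, 369 and 373 in Thr starvation and 102, 101 and 95.6 in Cys starvation. All libraries of either starved group lay above all unstarved ones, but the Cys-starved libraries stayed close to them. The log2 fold change was 2.21 (SE 0.027, 4.64-fold) in Thr starvation and 0.32 (SE 0.027, 1.25-fold) in Cys starvation. By size of increase it ranked 14th in the first contrast and 789th in the second, over the same 11410 genes.

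Arrdc3, an alpha-arrestin known to act on the beta2-adrenergic receptor and on body weight in mice, lay at 90.0, 90.8 and 88.3 CPM unstarved. It reached 263, 272 and 274 CPM in Thr starvation and 146, 143 and 140 CPM in Cys starvation. As for Txnip, the Cys-starved libraries stood between the other groups with no overlap. Its log2 fold change was 1.59 (SE 0.027, 3.00-fold) in Thr starvation and 0.67 (SE 0.026, 1.60-fold) in Cys starvation. Set directly against Cys starvation, Thr starvation gave differences of 1.03 for Txnip, 0.91 for Arrdc3 and 1.89 for Arrdc4 on the log2 scale.

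**Figure D1:**
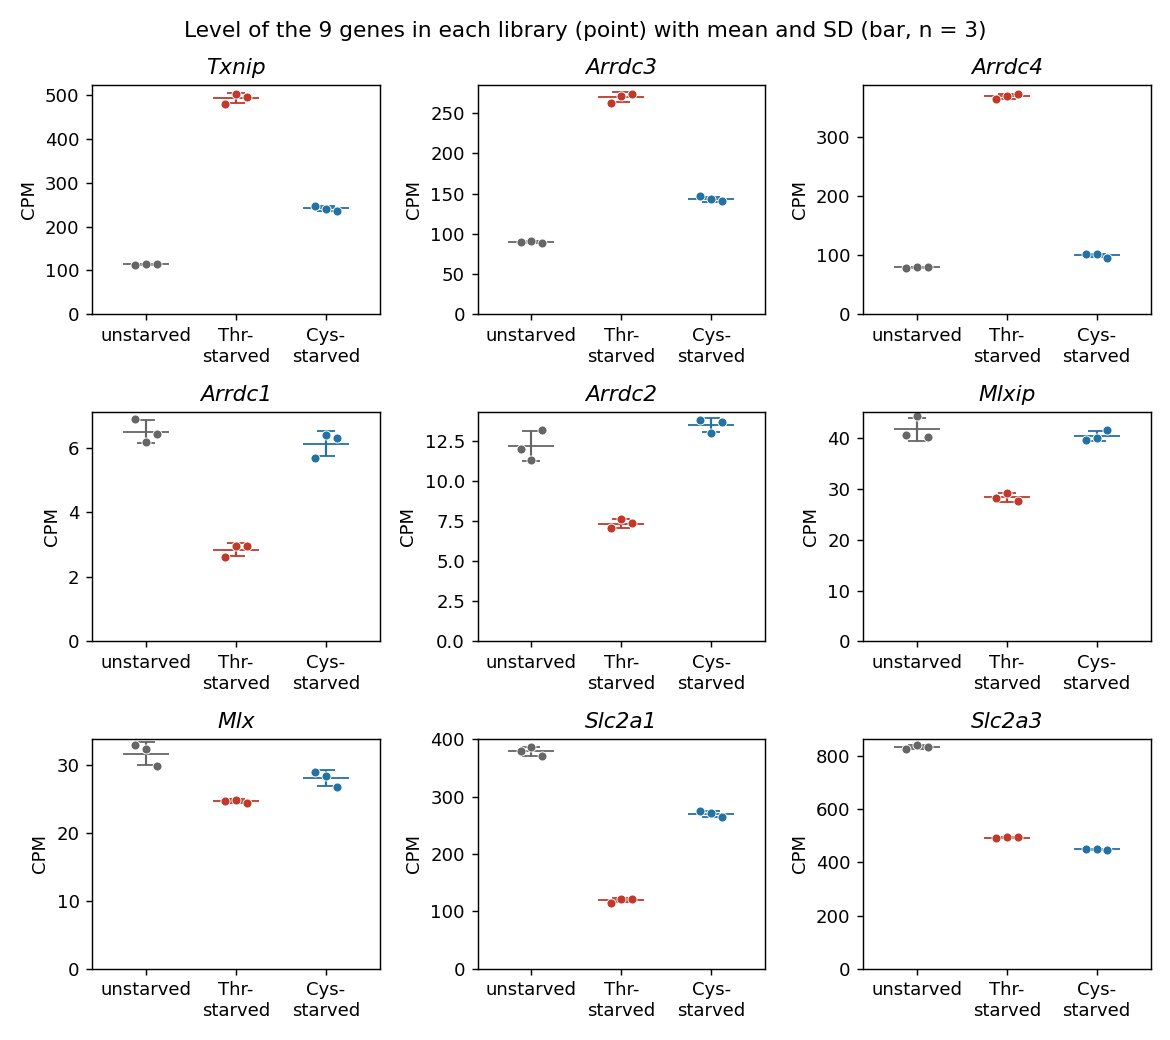
Level of each of the 9 genes in CPM (after TMM scaling, linear axes from 0), with a point for each library and the mean and SD of the 3 libraries of a group as bars. Txnip, Arrdc3 and Arrdc4 are highest in the Thr-starved libraries, whereas Slc2a1 is lowest there, at 115 to 122 CPM against 371 to 386 unstarved.

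The 2 remaining alpha-arrestins did not follow these 3 genes. Arrdc1, which is known for the release of vesicles at the plasma membrane, was the least abundant member, at 6.90, 6.19 and 6.44 CPM unstarved, 2.61, 2.96 and 2.96 in Thr starvation and 5.68, 6.41 and 6.31 in Cys starvation. The Thr-starved libraries lay below all the others, and the Cys-starved libraries overlapped the unstarved ones. In Thr starvation Arrdc1 fell by 1.19 (log2 scale, SE 0.096; adjusted p = 2.3e-10 by edgeR's quasi-likelihood test with Benjamini-Hochberg adjustment over 20143 genes, as for every adjusted p that follows). With offsets for GC content and length that remove each library's trend, the Thr difference of Arrdc1 was -0.96. In Cys starvation its difference of -0.09 did not pass (95% interval -0.26 to 0.09, adjusted p = 0.49).

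Arrdc2 was at 12.01, 11.33 and 13.19 CPM unstarved, 7.06, 7.65 and 7.37 in Thr starvation and 13.84, 13 and 13.72 in Cys starvation. Again the Thr-starved libraries were below the rest and the other groups overlapped. In Thr starvation Arrdc2 fell by 0.72 (log2 scale, SE 0.070, adjusted p = 5.0e-09), and the difference was -0.38 with offsets for GC content and length that remove each library's trend. The difference in Cys starvation was 0.15 (95% interval 0.018 to 0.29, adjusted p = 0.073). Without unstarved replicate 3 it was 0.21 and passed (adjusted p = 0.022).

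Read against all genes, a call in these contrasts is common. The shares given here and for the direct contrast cover all genes with at least 1 count. No share for genes of like level to the members is given, so the members' counts are not read as an excess. In Thr starvation 63.0% of tested genes were called at an adjusted p of 0.05 or less, 31.1% as higher and 31.9% as lower, and all 6 tested members were called, all as lower. The libraries of the 2 groups did not overlap for 66.5% of genes, nor for any of the 6 tested members. In Cys starvation the background was 36.3%, with 17.5% higher and 18.8% lower, and 3 of the 6 tested members (Mlx, Slc2a1 and Slc2a3) were called, all as lower. Non-overlap was found for 46.4% of genes, and for 3 of the 6 tested members, the 3 that were called. The groups did not overlap for Txnip, Arrdc3 and Arrdc4 in either starvation. These genes were chosen for their response, so they are not counted here. With the authors' deposited size factors in place of TMM, the share of Cys calls that were higher was 36.8% in place of 48.2%. The median log2 difference of all tested genes was -0.016 in Thr starvation and 0.0068 in Cys starvation, and the medians of the 6 tested members were -0.74 and -0.13.

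The genes of the MondoA and MLX pair were both lower in Thr starvation. Mlxip was at 40.7, 44.3 and 40.3 CPM unstarved, 28.2, 29.3 and 27.6 in Thr starvation and 39.66, 40.05 and 41.66 in Cys starvation. The Thr-starved libraries were apart from the rest, and the Cys-starved and unstarved libraries overlapped. The Thr-starved level of Mlxip fell by 0.56 (log2 scale, SE 0.043, adjusted p = 9.9e-11). With the GC and length trends removed the value was -0.37. In Cys starvation the difference of -0.05 did not pass (95% interval -0.13 to 0.04, adjusted p = 0.43), whereas with those trends removed it was -0.11 and passed (adjusted p = 0.020).

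Mlx, with the limit of its overlap with Psmc3ip, was at 33.0, 32.4 and 29.9 CPM unstarved, 24.7, 24.9 and 24.4 in Thr starvation and 29.0, 28.5 and 26.7 in Cys starvation. The 3 groups did not overlap, although the lowest unstarved library was close to the highest Cys-starved one. On the log2 scale Mlx fell by 0.36 in Thr starvation (SE 0.046, adjusted p = 3.6e-07). It fell by 0.18 in Cys starvation (SE 0.045, adjusted p = 0.0034).

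Slc2a1, which encodes GLUT1, had the largest fall among the members in Thr starvation, and Slc2a3, which encodes GLUT3, had the largest in Cys starvation. Slc2a1 was at 380, 386 and 371 CPM unstarved, 115, 122 and 121 in Thr starvation and 275, 271 and 265 in Cys starvation. The groups were fully separated, with Cys starvation in the middle. Slc2a1 fell by 1.67 on the log2 scale in Thr starvation (SE 0.026, 3.18-fold lower, adjusted p = 8.0e-23) and by 0.49 in Cys starvation (SE 0.025, adjusted p = 1.2e-12). With the GC and length trends removed the Thr difference was -1.49. The fall in the main fit ranked 116th and 146th by size among the 11410 genes in the 2 contrasts.

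Slc2a3 was at 828, 844 and 833 CPM unstarved, 490, 496 and 494 in Thr starvation and 451, 450 and 445 in Cys starvation. Here the order of the starved groups was turned, and every Cys-starved library lay below every Thr-starved one. Slc2a3 fell by 0.76 on the log2 scale in Thr starvation (SE 0.018, adjusted p = 1.2e-19) and by 0.90 in Cys starvation (SE 0.018, 1.86-fold lower, adjusted p = 1.6e-19). In Cys starvation this was the 6th largest fall of the 11410 genes, whereas in Thr starvation it ranked 852nd.

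**Figure D2:**
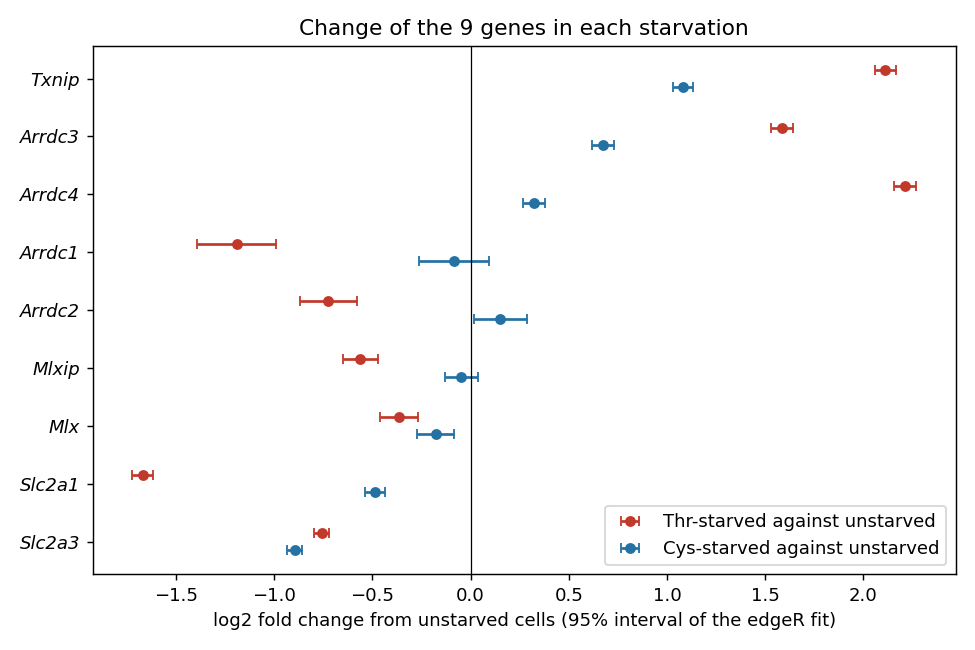
Log2 fold change from unstarved cells for each gene in Thr starvation (red) and Cys starvation (blue), with the 95% interval of the edgeR fit; the values of Txnip, Arrdc3 and Arrdc4 chose the set. The 6 other genes lie below 0 in Thr starvation, from -1.67 for Slc2a1 to -0.36 for Mlx, and the intervals of Arrdc1 and Mlxip in Cys starvation include 0.

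The direct contrast of the starvations asked which of these genes differed between a missing Thr and a missing Cys. Of all genes tested, 62.0% were called in it (30.4% higher and 31.6% lower in Thr starvation), and 6 of the 6 tested members were called. The 2 starved groups did not overlap for 65.8% of genes and for 6 of the 6 tested members. They did not overlap for Txnip, Arrdc3 and Arrdc4 either, which were chosen for their response. Slc2a3 was higher in Thr starvation, with a log2 difference of 0.14 (SE 0.018, adjusted p = 7.2e-07). The other 5 were lower in Thr starvation. The differences were -1.18 for Slc2a1 (adjusted p = 3.8e-20), -1.10 for Arrdc1 (adjusted p = 9.1e-10), -0.88 for Arrdc2 (adjusted p = 1.7e-10), -0.51 for Mlxip (adjusted p = 4.7e-10) and -0.19 for Mlx (adjusted p = 0.0013). With GC and length trends removed, those of Slc2a1, Arrdc1, Arrdc2 and Mlxip were -0.97, -0.86, -0.52 and -0.26.

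Levels of different genes were compared per exon length, as TPM (transcripts scaled to a fixed total for each library) computed from the counts. In unstarved cells the carriers led, with Slc2a3 at 243 ± 3.25 TPM and Slc2a1 at 228 ± 4.62 (SD, n = 3), followed by Txnip at 77.0, Arrdc4 at 41.5, Mlx at 33.5, Arrdc3 at 30.2, Mlxip at 10.6, Arrdc2 at 7.94 and Arrdc1 at 5.46. In Thr starvation Txnip stood first at 342 ± 9.46 TPM and Arrdc4 second at 198 ± 2.92, ahead of Slc2a3 at 148 and Arrdc3 at 93.2, and Slc2a1 was the fifth at 73.6. In Cys starvation Txnip at 175 ± 5.31 TPM and Slc2a1 at 174 ± 3.82 overlapped, with Slc2a3 next at 140 and Arrdc4 and Arrdc3 at 55.7 and 51.6. No other neighbours in these orders overlapped. Mlx, Mlxip, Arrdc2 and Arrdc1 were the 4 lowest in both starved groups.

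**Figure D3:**
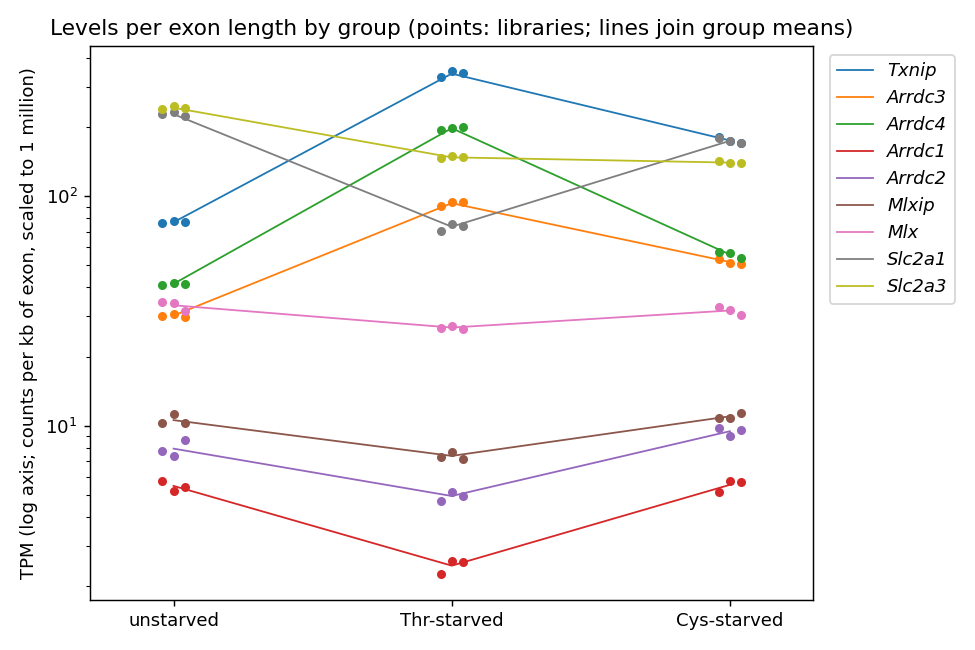
TPM of each gene on a log axis in unstarved, Thr-starved and Cys-starved cells, with points for libraries and lines joining the group means. Txnip moves from the third place at 77.0 TPM unstarved to first at 342 in Thr starvation, and Slc2a1 from 228 to 73.6.

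The carrier pair fell as a sum and its makeup differed between the starvations. Together Slc2a1 and Slc2a3 gave 471 ± 7 TPM unstarved, 221 ± 4.03 in Thr starvation and 314 ± 5.25 in Cys starvation (SD, n = 3). Slc2a1 made up 48.7%, 48.6% and 47.9% of this sum in the unstarved libraries, 32.6%, 33.6% and 33.5% in the Thr-starved ones and 55.7%, 55.4% and 55.2% in the Cys-starved ones. The share thus lay below the unstarved range in Thr starvation and above it in Cys starvation. For each of the 3 contrasts of the share and of the sum, the exact two-sided permutation test gave p = 0.1, the smallest that 3 libraries against 3 allow.

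The 5 alpha-arrestins together gave 162 ± 1.19 TPM unstarved, 640 ± 14.7 in Thr starvation and 297 ± 8.14 in Cys starvation, a sum that the choice of genes raises. Within it, Txnip made up 47.5% unstarved, 53.4% in Thr starvation and 58.8% in Cys starvation. Arrdc4 held 25.6%, 30.9% and 18.7% in the same order, and Arrdc3 18.6%, 14.6% and 17.4%. Arrdc1 made up 3.37%, 0.38% and 1.86%, and Arrdc2 4.90%, 0.77% and 3.18%. These shares follow in large part from the 3 genes that chose the set and are given with no test.

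The genes nearest to the 3 responders in their 2 log2 fold changes were found among those 11410 genes, by Euclidean distance. For Txnip these were Gdf15, a cytokine released under cell stress (2.23 in Thr starvation and 0.92 in Cys starvation, distance 0.21), then Mecom (2.01 and 0.81) and Napb (1.83 and 1.23). For Arrdc3 they were Tcta (1.59 and 0.69, distance 0.013), the ESCRT-I subunit gene Vps37b (1.60 and 0.67) and Leng1 (1.51 and 0.76). For Arrdc4 they were Zfas1 (2.22 and 0.36, distance 0.038), Rassf1 (2.26 and 0.35) and Snhg1 (2.28 and 0.30), of which Zfas1 and Snhg1 are host transcripts of small nucleolar RNAs. No gene came as close to Txnip as the nearest genes came to the other 2. Likeness here is over 3 conditions only.

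Genes of the surrounding pathways were counted in lists, each to be read against the 63.0% of all tested genes called in Thr starvation and the 36.3% called in Cys starvation. These shares cover all genes with at least 1 count, and no share for genes of like level is given. The calls of no list are therefore read as an excess. The beta-arrestins, relatives of the alpha-arrestins that act on G protein-coupled receptors, both fell in Thr starvation, Arrb1 by 1.06 and Arrb2 by 1.08 on the log2 scale. In Cys starvation Arrb1 was at -0.24 (adjusted p = 0.030) and Arrb2 at 0.12 (adjusted p = 0.027). Of these 2 Cys calls, neither held without unstarved replicate 3 or without Cys-starved replicate 2, and 1 held without unstarved replicate 1 or 2, without Cys-starved replicate 1, with the deposited size factors or with the GC and length trends removed.

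Of 17 partners of MondoA and MLX and genes known to answer to glucose, 5 rose and 9 fell in Thr starvation (median log2 difference -0.54), and 3 rose and 5 fell in Cys starvation (median -0.025). Klf10, a zinc finger gene known as a glucose-responsive target, rose by 1.26 in Thr starvation (221 ± 6.02 CPM against 92.5 ± 2.80, n = 3) and by 0.46 in Cys starvation. Mxd1, which encodes a MAX partner, rose by 1.03 and 0.28. Of the other MAX partners, Mxi1 fell by 1.55 in Thr starvation, and Mxd3 fell by 0.47 in Cys starvation. Fasn, the fatty acid synthase gene, fell by 0.90 in Thr starvation and did not pass in Cys starvation (-0.07, adjusted p = 0.091). The list mixes partners and targets and moved in both directions, and whether the activity of MondoA or MLX changed was not tested.

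In the thioredoxin system, named for the protein that TXNIP binds, 2 of 12 genes rose and 6 fell in Thr starvation (median -0.075). In Cys starvation 1 of the 12 rose and 8 fell (median -0.17). The 8 of 12 called in Thr starvation are near the 63.0% of all genes, and the 9 of 12 called in Cys starvation stand beside 36.3%. Of the 12, 11 averaged 5 CPM or more, whereas these shares cover all genes with at least 1 count. No share for genes of like level is given, so the 9 calls are not read as an excess. Txn1, thioredoxin itself, fell from 272 ± 0.58 to 179 ± 5.34 CPM in Thr starvation (log2 difference -0.60) and to 240 ± 2.64 CPM in Cys starvation (-0.18). Txnrd1, the cytosolic reductase of thioredoxin, fell further in Cys starvation (by 0.76) than in Thr starvation (by 0.46), a difference of 0.30 between the starvations (SE 0.025, adjusted p = 6.1e-10). Txnrd3 fell by 1.19 in Thr starvation, and the peroxiredoxin gene Prdx5 rose by 0.15 there.

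Among 11 NEDD4-family ligases and adaptors, the partners of the arrestin-domain proteins, 5 rose and 3 fell in Thr starvation, and 2 rose and 1 fell in Cys starvation (medians 0.15 and 0.0044). The adaptor Ndfip2 rose by 0.64 and the ligase Smurf2 by 0.52 in Thr starvation. The ligase Nedd4l fell by 0.36 and the adaptor Ndfip1 by 0.22 there, and Ndfip1 rose by 0.13 in Cys starvation.

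Sugar carriers outside the pair, of which 7 of 16 listed were tested, gave 1 rise and 6 falls in Thr starvation and 3 rises and 1 fall in Cys starvation (medians -0.69 and 0.16). Only 2 of these 7, Slc2a8 and Slc50a1, averaged 5 CPM or more, so the counts and medians include mostly genes of lower level. The intracellular carrier Slc2a8 fell by 0.30 in Thr starvation and rose by 0.28 in Cys starvation. Slc50a1 likewise fell by 0.91 and rose by 0.40. For both genes the direct contrast passed, with differences of -0.58 (SE 0.070) and -1.31 (SE 0.10). Their levels were under 15 CPM in each group, far below those of Slc2a1 and Slc2a3.

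Among hexokinases and other genes of glucose 6-phosphate handling (9 of 12 tested), 1 rose and 5 fell in Thr starvation, and 1 rose and 2 fell in Cys starvation (medians -0.33 and -0.064). The 6 of 9 and 3 of 9 called are both near the shares over all genes, 63.0% and 36.3%. Hk1, the hexokinase that starts glucose use in most tissues, fell by 1.02 in Thr starvation and by 0.15 in Cys starvation, and G6pdx fell by 0.41 in Thr starvation. Hk2, counted above among the genes known to answer to glucose, was more abundant, at 667 CPM unstarved against 47.4 for Hk1. Its difference of 0.02 in Thr starvation did not pass (adjusted p = 0.46), and it fell by 0.23 in Cys starvation. Slc37a4, the glucose 6-phosphate carrier of the endoplasmic reticulum, rose by 0.23 in Thr starvation and by 0.75 in Cys starvation.

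Of the AMPK subunits, the AMPK kinase gene Stk11 and the FOXO factors (11 of 12 tested), 5 rose and 5 fell in Thr starvation, and 5 rose and 2 fell in Cys starvation (medians -0.035 and 0.13). Foxo3, a FOXO factor active when insulin signaling is low, rose from 58.0 ± 0.74 to 116 ± 0.89 CPM in Thr starvation (log2 difference 1.00) and to 72.9 ± 2.16 CPM in Cys starvation (0.33). The AMPK subunit gene Prkab2 rose by 0.77 in Thr starvation, whereas Prkag2 fell by 0.71 and Foxo4 by 0.55. The 7 calls in Cys starvation became 4 without unstarved replicate 2, without Cys-starved replicate 1 or 3, or with the GC and length trends removed.

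**Figure D4:**
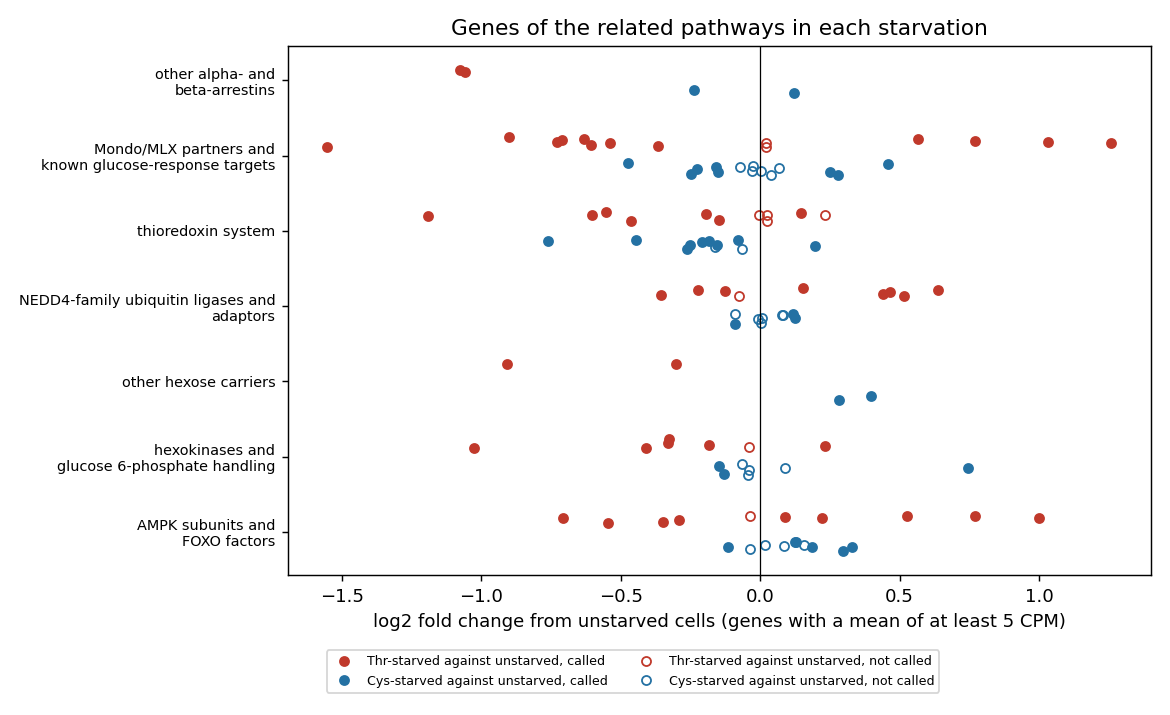
Log2 fold change from unstarved cells of the list genes that averaged 5 CPM or more, in Thr starvation (red) and Cys starvation (blue), with filled points for genes called at an adjusted p of 0.05 or less and open points for the rest. Most lists spread to both sides of 0, and the extremes in Thr starvation are Mxi1 at -1.55 and Klf10 at 1.26.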

How the data were processed

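The authors made the counts from paired poly(A) RNA-seq reads of 1 sequencing run, with STAR 2.7.4a on GRCm38 and HTSeq, and deposited them per Ensembl gene without normalization. The submitters' processing notes also name FastQC 0.11.7, R 4.0.3 and DESeq 1.30.1. The signal values of the other deposited table are these counts divided by 1 size factor per library and served as an alternative. Of 20189 identifiers, 20171 matched a GENCODE M21 symbol.

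Counts of genes with at least 1 count over the 9 libraries were fitted with edgeR 4.0.16 (TMM, quasi-likelihood test, R 4.3.3) in 1 model of all 9 libraries, with Benjamini-Hochberg adjustment over 20143 genes and a threshold of 0.05. The biological coefficient of variation was 3.53%. On counts for 20143 genes simulated from the fitted negative binomial model, 198 of 200 changed genes were recovered with 16 false calls. The changed genes had 5 CPM or more and were changed in the Thr-starved group alone. So few changed genes do not test the fit where 63.0% of genes are called, as in the measured Thr contrast. TPM used exon lengths from GENCODE M21, and similar transcripts were sought with BLAST 2.17.0.

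The members and lists were chosen with earlier results of these data known. Named list genes were, at a mean of 5 CPM or more, up to 2 called rises and 2 called falls in Thr starvation and the largest called change in Cys starvation. Arrb2 in Cys starvation, Hk2, Stk11, T, Eomes, Foxa2, Sox17, Gata4, Cdx2 and Meox1 were named after their values were seen. Between libraries of a group, chi-square per gene was 1.98 to 2.13 at 20 to 200 counts per pair of libraries, where counting both ends of a fragment would alone give about 2, and 2.61 to 5.22 at 2000 to 20000 counts. No 2 libraries were treated as copies. Other starvations of the study were not analysed here.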

Additional observations from a re-analysis of the deposited data

How the results depend on the processing

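No member reversed direction in any contrast under 8 other settings (DESeq2 1.42.0, RLE normalization, the deposited size factors, edgeR's filter on low counts, the 2 compared groups alone, a replicate block, GC and length offsets, and halved counts) or with 1 library left out. Genes called stayed within 1.5 times the values given under each of these and at an adjusted p of 0.01. With GC and length offsets, Arrdc3 was at 1.35 in Thr starvation, 0.61 in Cys starvation and 0.74 in the direct contrast, and Mlxip in Cys starvation was at -0.11 and passed. With the deposited size factors, the Cys differences of Txnip, Arrdc3 and Arrdc4 were 1.04, 0.63 and 0.28, and those of the direct contrast 1.07, 0.96 and 1.93. With 1 library left out, Arrdc2 in Cys starvation ran from 0.10 to 0.21. For the lists, to which the same settings were applied after the data were seen, the beta-arrestin calls in Cys starvation were 1 with either of those 2 settings and ran from 0 to 2 with 1 library left out, and the AMPK and FOXO calls there were 4 with the GC and length offsets and ran from 4 to 7. The cause of these shifts was not tested.

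The replicate numbers did not pair the libraries, since libraries that share a number, each taken relative to the mean of its group, correlated at -0.24 to 0.11 over 11410 genes, and a library correlated best with its own number in 2 of 18 cases (each library against each other group). The fit with the replicate block called 12488, 7063 and 12334 genes in the Thr, Cys and direct contrasts and changed no call of a member. Depth limits Arrdc1 most, at 128 to 417 counts per library.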
